A study of Mus musculus with 23 samples.

Results

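The primary cilium genes described here are 54 mouse genes that code for the parts of the primary cilium and the factors that build it. They were chosen by name, as all probe sets whose platform gene symbol is on that list. Of the 54 genes 51 had a probe set, 93 probe sets in all, out of 18194 genes with a probe set on the array, and Arl13b, Rpgrip1l and Arl6 had none. RNA came from medulloblastoma allografts labelled with the genotype Ptch+/-HIC+/-, heterozygous for Ptch1, the gene of the Hedgehog receptor, and for the gene labelled HIC, and grown under the skin of the right flank of nu/nu mice. The mice were given vehicle or NVP-LDE225, which blocks Smoothened, the transducer of the Hedgehog signal, and their ages are not given.

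Expression was measured on 23 arrays in 8 groups, and every group shares the tumour genotype and the nude host, which lacks mature T cells. There were 3 vehicle arrays with no stated time and 2 vehicle arrays at 4 h. Tumours labelled sensitive gave 3 arrays for each of 4 times, 4, 8, 24 and 48 h from a 40 mg/kg dose. Tumours labelled resistant were collected under 40 mg/kg or 160 mg/kg, with 3 arrays at each dose and no stated time. Among the 12 short-term treated arrays the source label of 6 says resistant, namely replicates 2 and 3 at 4 h, all replicates at 8 h and replicate 1 at 24 h, while their description and tumour status say sensitive. The description was followed, and what changed without replicate 1 at 24 h is given with the 24 h results. No label says that replicates are separate animals, and the p-values therefore cover the spread among these arrays, which may be technical.

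The primary cilium is a single, non-motile projection that most vertebrate cells grow from the mother centriole when they leave the cell cycle. Its trains of intraflagellar transport (IFT) particles carry Hedgehog components in and out: Ptch1 keeps Smoothened out of the cilium, and with ligand, or without working Ptch1, Smoothened gathers there and Gli transcription factors are activated. Granule neuron progenitors of the cerebellum, from which such tumours arise, carry a primary cilium, and in them loss of the cilium blocks tumours that are driven by active Smoothened.

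RFX transcription factors, among them the member Rfx3, act on cilium genes through a paired DNA motif named the X-box, so promoters of the listed genes were searched for it. RefSeq promoters of GRCm38.p6, each of 300 bases from 250 before to 50 after the start, were at hand for 48 of the 54 genes. The search took GTTNCC followed by 0 to 3 bases and the reverse complement of GTTNCC, on either strand. It matched in 5 of the 48 genes (10.4%). Counted by promoter, it matched 5 of the 52 member promoters (9.62%) and 0.8% of all 32851 promoters. The 5 matches are printed because they are the same factor's motif in genes that did not move alike in these tumours. Capitals mark the X-box, with up to 20 bases on either side, read 5′ to 3′ on the strand of the gene.
Ahi1: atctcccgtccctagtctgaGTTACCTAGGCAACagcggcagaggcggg
Bbs7: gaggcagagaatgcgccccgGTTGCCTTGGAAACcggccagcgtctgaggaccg
Ift57: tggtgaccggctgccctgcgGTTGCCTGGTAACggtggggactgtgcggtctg
Mks1: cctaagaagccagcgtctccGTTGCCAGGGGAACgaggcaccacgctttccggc
Tctn1: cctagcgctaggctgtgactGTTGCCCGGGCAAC
The windows lie at chr10:20952548-20952596 (plus strand) for Ahi1, chr3:36613477-36613530 (minus) for Bbs7, chr16:49699214-49699266 (plus) for Ift57, chr11:87853171-87853224 (plus) for Mks1 and chr5:122264411-122264444 (minus) for Tctn1. The box began 121 bases before the start in Bbs7, 60 before it in Ift57 and 24 before it in Mks1, and 22 bases into the gene in Ahi1 and 37 in Tctn1. Its single arm GTTNCC, counted on either strand and also where it lies within a full box, matched 80.8% of the 52 member promoters and 45.34% of all promoters. The forkhead letters GTAAACA and the Gli letters GACCACCCA, also read on both strands, matched none of the member promoters, against 3.65% and 0.25% of all promoters. A match describes the letters only and does not show binding.

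The cilium genes were measured well enough to follow. A signal above the 40th percentile of its array was seen on all 23 arrays for 45 of the 51 genes. Foxj1, the regulator of motile cilia, passed on 6 arrays and Tmem67, a transition zone membrane protein, on 1, which left 50 genes that could be tested. A probe set is called where limma's adjusted p over 35066 probe sets is under 0.05, differences are in log2(signal + 16), which understates changes of dim genes, and a gene is read by its brightest probe set. The listed genes of motile cilia, which a non-motile cilium lacks, were dim: of 35 on the array, 23 lay below the 40th percentile on every vehicle array. Granule lineage genes were present in the vehicle tumours, where Atoh1, the transcription factor of granule neuron progenitors, read between 3784 and 4705. Gli1, the standard readout of Hedgehog output, was between 631 and 710 in vehicle, between 4.2 and 18.6 at 48 h, and between 594 and 1269 in resistant tumours. Array medians ran from 33.9 to 46.7, and precision is limited by how many arrays there are.

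**Figure D1:**
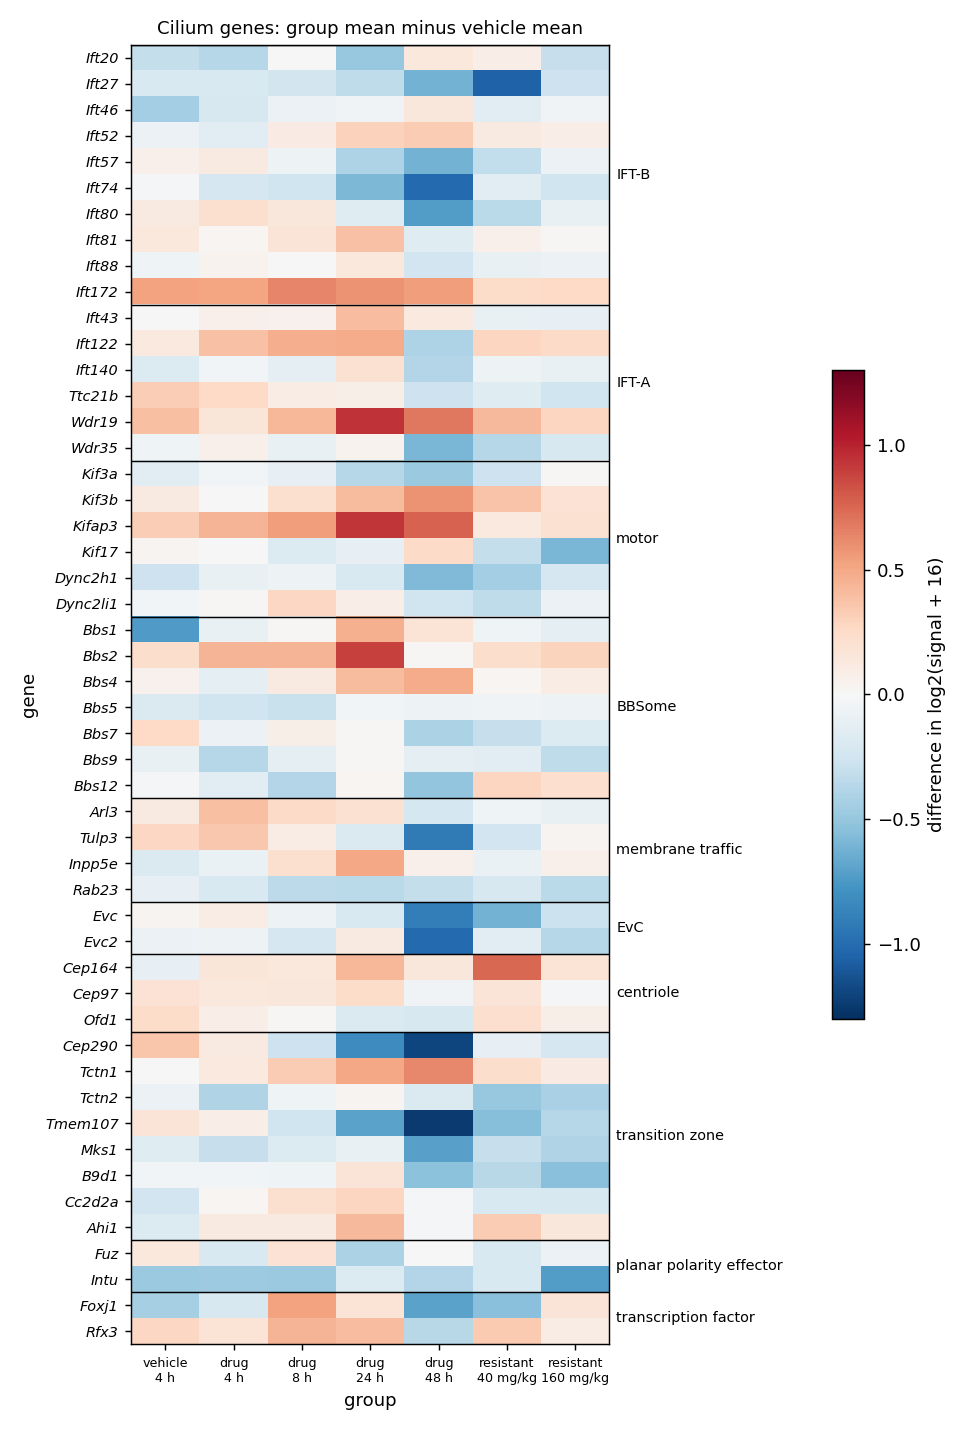
Mean log2(signal + 16) of each group minus the mean of the 3 vehicle arrays (colour), for the 50 tested cilium genes (vertical axis, ordered by role) in the other 7 groups (horizontal axis). The 48 h column holds the deepest blue, in Tmem107 and Cep290, while Kifap3 and Wdr19 are red at 24 and 48 h. In the 2 resistant columns Ift27 is deep blue and Cep164 red at 40 mg/kg.

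In the first hours after dosing no cilium gene was called by limma. At 4 h against the 4 h vehicle 0 of 50 genes were called, where 0.348% of all 14946 tested genes were, and the median difference of the members was 0.01, the same as over all genes. An unadjusted p under 0.05 was found for 1 member. At 8 h the count was again 0, against 4.61% of all genes, 7 members had an unadjusted p under 0.05, and with all 5 vehicle arrays as the control 2 were called. The 4 h vehicle arrays gave no calls against the other vehicle arrays (0.201% of all genes, and 6 members at an unadjusted p under 0.05). All 3 comparisons include the group of 2 arrays, the smallest in the series.

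At 24 h the cilium genes moved both ways. Of 50 genes 9 rose and 6 fell, 30% of the members, where 34.1% of all genes were called (19.7% higher and 14.4% lower). The genes that rose were Kifap3 and Wdr19 of the transport machinery, Ift172, Ift81, Ift122 and Ift43 of the trains, Bbs2 of the BBSome, the ciliary lipid phosphatase gene Inpp5e and the transition zone gene Ahi1. The genes that fell were Ift20, Ift57, Ift74, the small GTPase gene Rab23, Cep290 and Tmem107. Among these called genes Ift172, Ift81 and Ift20 overlapped the 4 h vehicle arrays. Ift172 read 178.8, 232.2 and 212.1 at 24 h, against 210.7 and 185.1 in the 4 h vehicle. The member median was 0.08 against 0.10 for all genes, so the share and the middle of the list were near the background. Without replicate 1 at 24 h, whose source label says resistant, 11 genes were called (7 higher and 4 lower), and the calls of Inpp5e, Rab23, Cep290 and Ahi1 were lost. Without replicate 2 at 24 h 9 were called (6 higher and 3 lower), and those of Ift20, Ift57, Ift43, Inpp5e, Cep290 and Ahi1 were lost. The call of Inpp5e was lost without any single 24 h or vehicle array, and that of Rab23 without any but replicate 2 at 24 h. Those of Ift20 and Ahi1 were also lost without vehicle replicate 1, and that of Cep290 without vehicle replicate 3. Markers of other cells moved at 24 h too. Of the skeletal muscle markers 13 of 16 rose (summed signal 12807 to 17945 against 1066 to 13736 in vehicle), as did 11 of 15 fibroblast and matrix markers, 7 of 15 macrophage markers and 11 of 15 granule lineage genes, none of these lists had a gene that fell, and their part in the cilium values was not tested.

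At 48 h more of the cilium genes were lower than higher. Of 50 genes 18 fell and 6 rose, with a member median of -0.24 where the median of all genes was 0.06. Over all genes 46.5% were called, 25.2% higher and 21.3% lower, so the share of members called in either direction (48%) was near the background and the split between directions was 6 higher to 18 lower against 3762 to 3186 over all genes. Quantile normalization of the arrays turned the split to 3 higher and 21 lower and moved the median of all genes from 0.06 to -0.02. Signals of 19 genes lay below every vehicle array on all 3 arrays at 48 h, those of 8 above, and those of 23 overlapped. By the same count 25.8% of all genes lay below and 30.5% above. Summed over all 51 genes the signal was 12198 to 12472 in vehicle, 12958 to 13581 at 24 h and 10182 to 10718 at 48 h, and these 3 ranges do not overlap. Resistant tumours summed to 10962 to 12064 at 40 mg/kg and 10945 to 12180 at 160 mg/kg, between the 48 h and vehicle ranges. Bright genes such as Ift27 weigh most in this sum.

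Markers of other cells moved with the same arrays. All 15 macrophage markers rose at 48 h, when their summed signal was 30632 to 41920 against 1821 to 3033 in vehicle, and all 15 fibroblast and matrix markers rose too (41084 to 59160 against 5395 to 11714). At 48 h none of the 15 macrophage markers was below the 40th percentile on every array, and Cd68, a lysosomal protein of macrophages, read 2201 to 3895 against 103.0 to 140.8 in vehicle. Of 15 tested granule lineage genes 10 rose and 2 fell at 48 h. The 16 genes of that list summed to 24126 to 27814 at 48 h, against 12109 to 13391 in vehicle. Among 12 endothelial markers 11 rose and 1 fell. All 19 proliferation genes fell at 24 h and at 48 h. Their sum was 34282 to 35353 in vehicle, 3495 to 4100 at 24 h and 3797 to 5472 at 48 h. The 3′ to 5′ actin ratio, which reads RNA integrity and labelling, was 1.04 ± 0.04 on the log2 scale in vehicle, 1.65 ± 0.22 at 24 h and 0.92 ± 0.07 at 48 h (SD, n = 3 each). The part of any of these in the cilium values was not tested, and in such bulk RNA fewer cells of a type and less RNA per cell cannot be told apart.

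**Figure D2:**
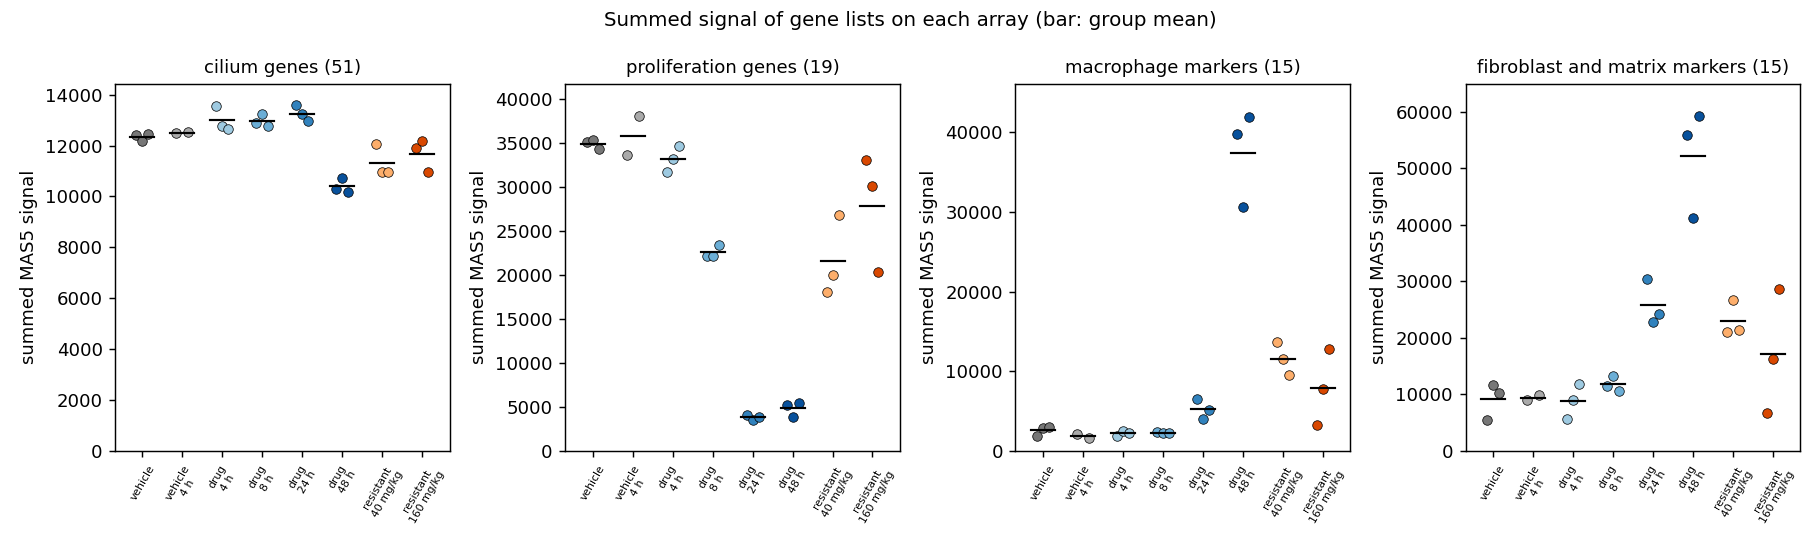
Summed MAS5 signal (vertical axis) of the 51 cilium genes, 19 proliferation genes, 15 macrophage markers and 15 fibroblast and matrix markers on each array (points), with group means as bars, in the 8 groups. At 48 h the cilium sum is lowest (10182 to 10718) and the macrophage sum highest (30632 to 41920). At 24 h the proliferation sum is 3495 to 4100 and the cilium sum 12958 to 13581. The part of the other lists in the cilium sum was not tested.

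Among the IFT-B genes, whose proteins form the trains that run to the tip, 4 of 10 fell and 2 rose at 48 h. Ift74, which with Ift81 carries tubulin to the growing tip, read 447.4, 416.7 and 436.6 in vehicle, 266.4, 308.1 and 280.9 at 24 h and 219.4, 210.3 and 192.5 at 48 h. Each of the 3 groups lay apart from the others, in falling order. The 48 h difference was -1.01 ± 0.12 (SE, limma adjusted p = 2.7e-07). Ift80, a peripheral IFT-B protein, read 239.2, 248.1 and 232.1 in vehicle and 129.0, 129.3 and 160.2 at 48 h, with no overlap (-0.72, limma adjusted p = 9.3e-05), and its other probe set fell as well. Ift57, whose promoter holds an X-box, fell by 0.61 (limma adjusted p = 0.00013), with vehicle arrays from 282.5 to 303.8 and 48 h arrays from 178.4 to 189.7.

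Ift27, a Rab-like GTPase that links the trains to the BBSome, fell on all of its 3 probe sets at 48 h. The brightest one read 1230.5, 1245.8 and 1222.0 in vehicle and 762.2, 953.2 and 706.6 at 48 h (-0.61 ± 0.13, limma adjusted p = 0.00065), with no overlap. It is of the kind that can share probes with other transcripts. In the other direction Ift172, a large adaptor at the edge of the train, rose by 0.54 and Ift52, a core subunit, by 0.33 (limma adjusted p of 0.0066 and 0.042). Ift172 did not stand apart from the 4 h vehicle arrays, which read 210.7 and 185.1 against 213.2, 212.5 and 177.3 at 48 h (0.02, limma adjusted p = 0.95), and the call of Ift52 was lost without replicate 3 or 4 at 48 h or without any of the 3 vehicle arrays.

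Of the 6 IFT-A genes, which serve the return from the tip and the entry of membrane receptors, 3 fell and 1 rose at 48 h. Ift122, a core subunit, was 303.4, 334.5 and 362.5 in vehicle, 431.0, 538.3 and 448.5 at 24 h and 258.6, 278.3 and 209.8 at 48 h. It was thus above every vehicle array at 24 h and below every vehicle array at 48 h. The difference was 0.48 at 24 h (limma adjusted p = 0.0033) and -0.41 at 48 h (limma adjusted p = 0.0083), the latter not called without replicate 4 at 48 h. Its probe set can share probes with other transcripts, and its other probe set gave -0.25 (limma adjusted p = 0.27) at 48 h.

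Wdr19, another core IFT-A subunit, went the other way and stayed up. It read 53.1, 64.2 and 61.4 in vehicle, 124.1, 135.2 and 127.1 at 24 h and 102.7, 115.4 and 99.4 at 48 h, a difference of 0.69 ± 0.16 (limma adjusted p = 0.00093). Against the 4 h vehicle arrays, at 92.7 and 73.9, Wdr19 was not called at 48 h. Wdr35, a peripheral IFT-A subunit, was 151.9, 162.5 and 144.8 in vehicle and 112.9, 72.0 and 108.2 at 48 h (-0.59, limma adjusted p = 0.0049), with no overlap. That call was lost without replicate 3 at 48 h, and the second Wdr35 probe set gave 0.02. Ift140, a core IFT-A subunit, fell by 0.38 (limma adjusted p = 0.0096), from 470.4, 395.6 and 415.1 in vehicle to 342.0, 322.7 and 305.2 at 48 h. The 4 h vehicle arrays read 372.0 and 378.4, and with them as control Ift140 was not called, nor was it without vehicle replicate 1.

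**Figure D3:**
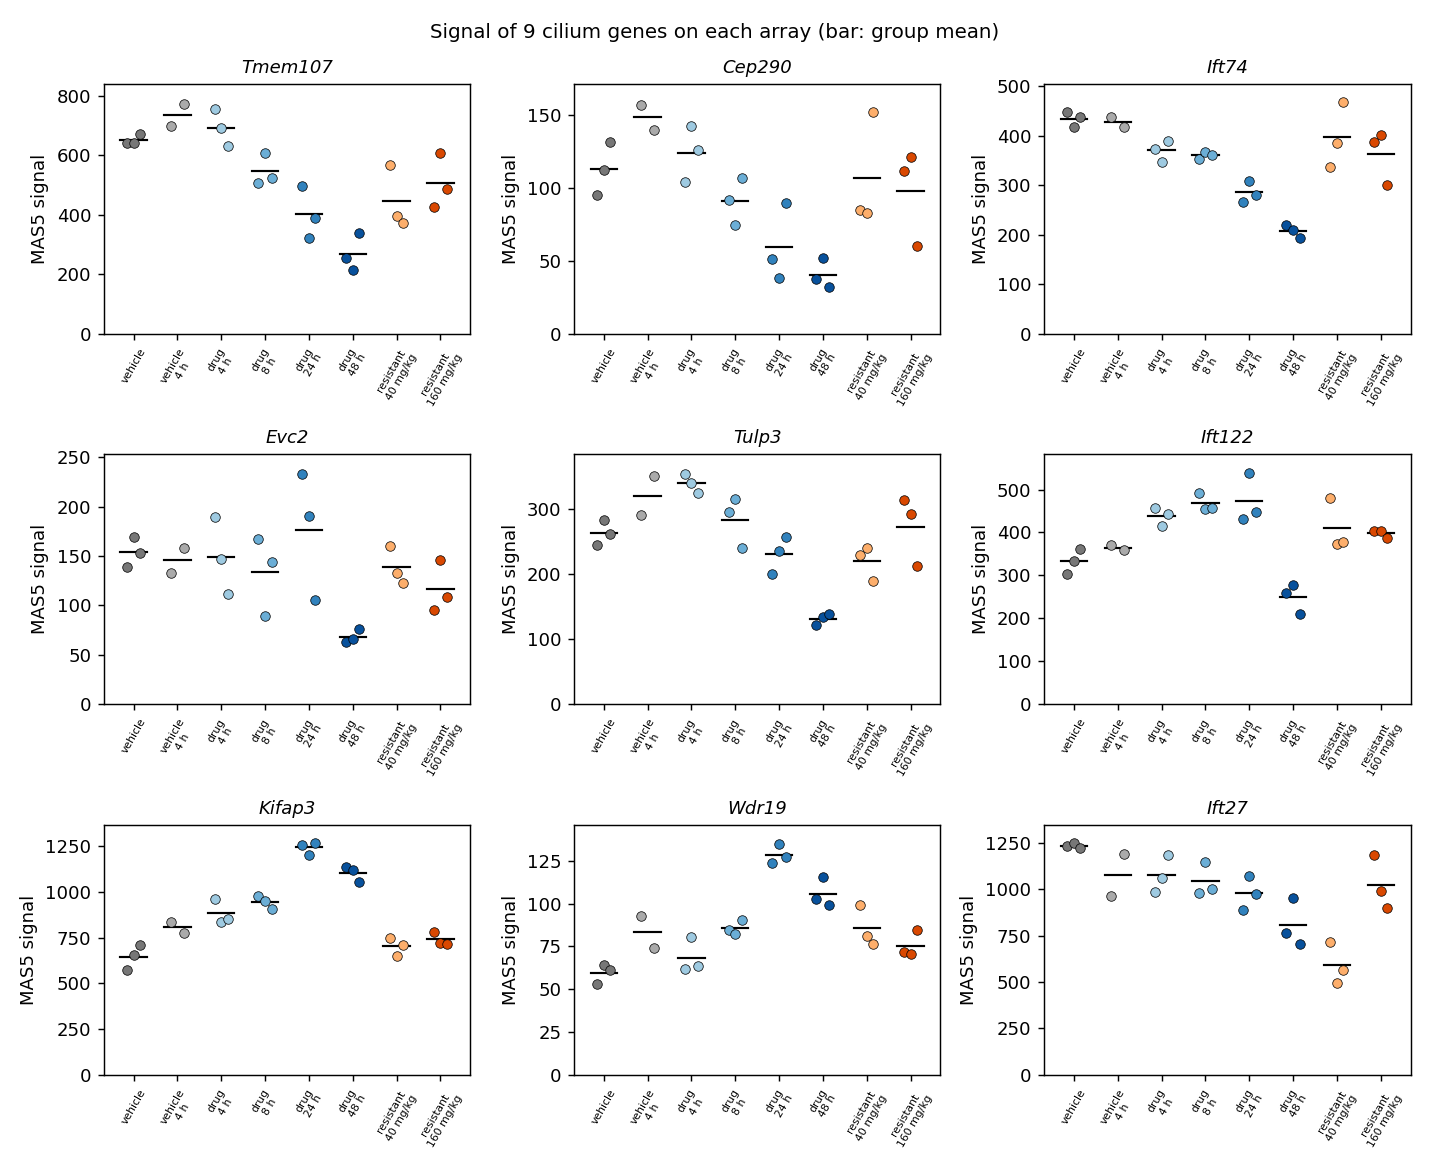
MAS5 signal (vertical axis, from 0) of 9 cilium genes on each of the 23 arrays (points) in the 8 groups, with group means as bars. Tmem107, Cep290, Ift74, Evc2 and Tulp3 have their lowest group mean at 48 h, Ift122 is high at 24 h and low at 48 h, Kifap3 and Wdr19 are highest at 24 h, and Ift27 is lowest in resistant tumours at 40 mg/kg.

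The motors that pull the trains split as well, with 2 of 6 genes higher and 2 lower at 48 h. Kifap3, the adaptor subunit of the heterotrimeric kinesin of the outward trip, read 574.4, 655.3 and 708.8 in vehicle, 1258.6, 1204.4 and 1268.9 at 24 h and 1134.5, 1121.9 and 1055.3 at 48 h. Vehicle arrays lay below all arrays of both later times. The difference was 0.93 ± 0.09 at 24 h (limma adjusted p = 2.8e-08) and 0.76 ± 0.09 at 48 h (limma adjusted p = 3.1e-07). Kif3b, a motor subunit of the same kinesin, read 73.8, 77.3 and 56.7 in vehicle and 111.6, 112.6 and 109.9 at 48 h (0.59, limma adjusted p = 0.0099). Its call was lost without vehicle replicate 3, against the 4 h vehicle and with quantile normalization. Kif3a, its partner motor subunit, cannot be given a direction. Its brightest probe set fell by 0.49 (limma adjusted p = 0.013), 2 of the other 3 fell and the fourth rose by 0.34 (limma adjusted p = 0.0495), and the brightest was not called without replicate 3 or 4 at 48 h or vehicle replicate 1, nor against the 4 h vehicle.

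Dync2h1, the heavy chain of the dynein that brings trains back, read 205.2, 211.4 and 240.7 in vehicle, 192.7, 192.8 and 180.1 at 24 h and 128.5, 145.6 and 150.2 at 48 h. The 48 h arrays were the lowest and did not overlap either group (-0.58 ± 0.11, limma adjusted p = 0.00017). Against the 4 h vehicle the 48 h call of Dync2h1 was lost. Kif17, a homodimeric kinesin of some sensory cilia, was dim, at 45.5, 24.3 and 29.6 in vehicle and 42.0, 35.8 and 47.7 at 48 h, which overlap.

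The BBSome, a coat that carries membrane proteins out of the cilium, had 0 of 7 genes higher and 2 lower at 48 h. Bbs12, a chaperonin-like protein that helps assemble it, read 75.3, 89.3 and 112.4 in vehicle and 59.1, 65.6 and 53.6 at 48 h, all below vehicle (-0.51, limma adjusted p = 0.015). Bbs7, a core subunit and the holder of an X-box in its promoter, read 130.7, 148.3 and 162.7 in vehicle against 111.4, 132.8 and 79.6 at 48 h, so that its groups overlap (-0.42, limma adjusted p = 0.032). Both calls were lost without replicate 4 at 48 h or without vehicle replicate 3, and that of Bbs7 also without vehicle replicate 2. Bbs2, a core subunit, rose at 24 h, with 164.1, 145.3 and 147.3 against 70.2 to 83.1 in vehicle (0.88, limma adjusted p = 0.00023), and read 72.0 to 82.4 at 48 h.

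Among the 4 genes of membrane traffic 1 fell at 48 h. Tulp3, which with IFT-A brings receptors such as Gpr161 into the cilium and holds Hedgehog output down, read 244.9, 282.6 and 261.9 in vehicle, 199.5, 234.5 and 257.4 at 24 h and 121.1, 134.2 and 139.1 at 48 h. The 24 h arrays overlapped vehicle, and the 48 h arrays lay below both groups (-0.92 ± 0.14, limma adjusted p = 1.4e-05). Its other 2 probe sets gave -0.46 and -0.38 and were not called. Arl3, a small GTPase that unloads lipid-modified cargo, gave -0.23 (limma adjusted p = 0.2).

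Evc and Evc2 code for partner membrane proteins near the base of the cilium that pass the signal on from active Smoothened, and both fell at 48 h. Evc2 read 139.3, 169.3 and 153.5 in vehicle, 232.6, 190.7 and 105.3 at 24 h and 63.3, 65.9 and 76.2 at 48 h. The 24 h arrays spread around vehicle on both sides, and the 48 h arrays lay below every other array of both groups (-1.01 ± 0.23, limma adjusted p = 0.0012). Evc read 160.1, 150.1 and 194.7 in vehicle and 80.9, 81.3 and 85.8 at 48 h, again with no overlap (-0.89 ± 0.18, limma adjusted p = 0.00032). Its second, dimmer probe set gave -0.35 (limma adjusted p = 0.41).

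The genes Evc and Evc2 lie next to each other on chromosome 5, on opposite strands, with RefSeq starts 1597 bases apart. Their start regions are printed because both genes fell together. Each line gives 100 bases before and 50 after the start on the gene's own strand, Evc at chr5:37336832-37336981 (minus) and Evc2 at chr5:37338378-37338527 (plus), GRCm38.p6. Capitals mark the only match among the member promoters to the E2F letters TTTCCCGC, here on the opposite strand. These letters were found in 1.07% of all promoters.
Evc: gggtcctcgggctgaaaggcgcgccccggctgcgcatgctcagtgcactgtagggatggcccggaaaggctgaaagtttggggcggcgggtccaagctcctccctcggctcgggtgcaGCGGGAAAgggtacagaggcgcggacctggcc
Evc2: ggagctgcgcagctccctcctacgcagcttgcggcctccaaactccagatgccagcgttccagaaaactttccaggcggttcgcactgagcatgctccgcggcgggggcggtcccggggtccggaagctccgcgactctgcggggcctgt

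The transition zone is the gate at the base of the cilium, and 4 of its 8 genes fell at 48 h while 1 rose. Tmem107, a membrane protein of the gate, had the largest fall of the 50 genes. It read 642.5, 642.8 and 669.8 in vehicle, 496.2, 322.1 and 389.3 at 24 h and 254.6, 215.8 and 337.4 at 48 h. Vehicle arrays lay above all others, and 24 h and 48 h overlapped. The difference was -0.69 at 24 h (limma adjusted p = 0.0027) and -1.25 ± 0.17 at 48 h (limma adjusted p = 1.7e-06). A second Tmem107 probe set gave -1.34 at 48 h and the other, a dim probe set, gave 0.03.

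Cep290, which ties the gate's microtubules to the membrane, was 95.2, 111.8 and 131.0 in vehicle, 51.2, 37.9 and 89.4 at 24 h and 37.8, 51.5 and 32.2 at 48 h. All treated arrays of both times lay below vehicle (48 h: -1.19 ± 0.25, limma adjusted p = 0.00053). Mks1, of the Meckel syndrome complex of the gate, read 122.8, 103.6 and 127.0 in vehicle and 63.3, 69.7 and 65.1 at 48 h, with no overlap (-0.70, limma adjusted p = 0.0051). The call of Mks1 was lost against the 4 h vehicle arrays, which read 125.0 and 84.8. B9d1, of the same complex, fell by 0.54 (limma adjusted p = 0.014), and Tctn1, a secreted or membrane tectonic protein of the complex, rose by 0.63 (limma adjusted p = 0.015). The call of B9d1 was lost without replicate 1 at 48 h or vehicle replicate 2, and that of Tctn1 without replicate 1 at 48 h or vehicle replicate 3 and with quantile normalization.

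None of the 3 centriole genes was called at 48 h. Ofd1, a protein of the distal centriole, read 92.6, 111.5 and 109.2 in vehicle and 77.0, 84.6 and 104.8 at 48 h, which overlap (-0.21, limma adjusted p = 0.35). Of the planar polarity effectors Fuz and Intu, which help trains load at the base, none was called either. Of the 5 genes with a printed X-box, Ift57, Mks1 and Bbs7 fell at 48 h, Tctn1 rose and Ahi1 gave -0.02 (limma adjusted p = 0.93).

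Rfx3, the X-box factor on the list, read 359.9, 468.1 and 431.8 in vehicle, 567.6, 534.7 and 570.9 at 24 h and 324.7, 350.8 and 291.8 at 48 h. The 24 h arrays lay above these vehicle arrays and the 48 h arrays below them. The 4 h vehicle arrays read 590.4 and 437.1, and the 24 h arrays lay between those values. Neither difference from vehicle was called (0.40, limma adjusted p = 0.061, and -0.36, limma adjusted p = 0.08). Foxj1 was near the floor of the array, at 29.6, 3.4 and 18.7 in vehicle and 1.6, 1.9 and 6.8 at 48 h, which overlap (-0.70, limma adjusted p = 0.1).

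Over the 11 comparisons 36 of the 50 tested genes were called at least once, against 60.9% of all genes. The 14 others were Ift46, Ift88, Ttc21b, Dync2li1, Bbs1, Bbs4, Bbs5, Bbs9, Cep97, Tctn2, Cc2d2a, Fuz, Intu and Foxj1, with 48 h differences from -0.70 in Foxj1 to 0.49 in Bbs4. Of the 22 genes with several tested probe sets, 12 had them all on the same side of 0 at 48 h and 10 did not, and Kif3a was the gene called in both directions.

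**Figure D4:**
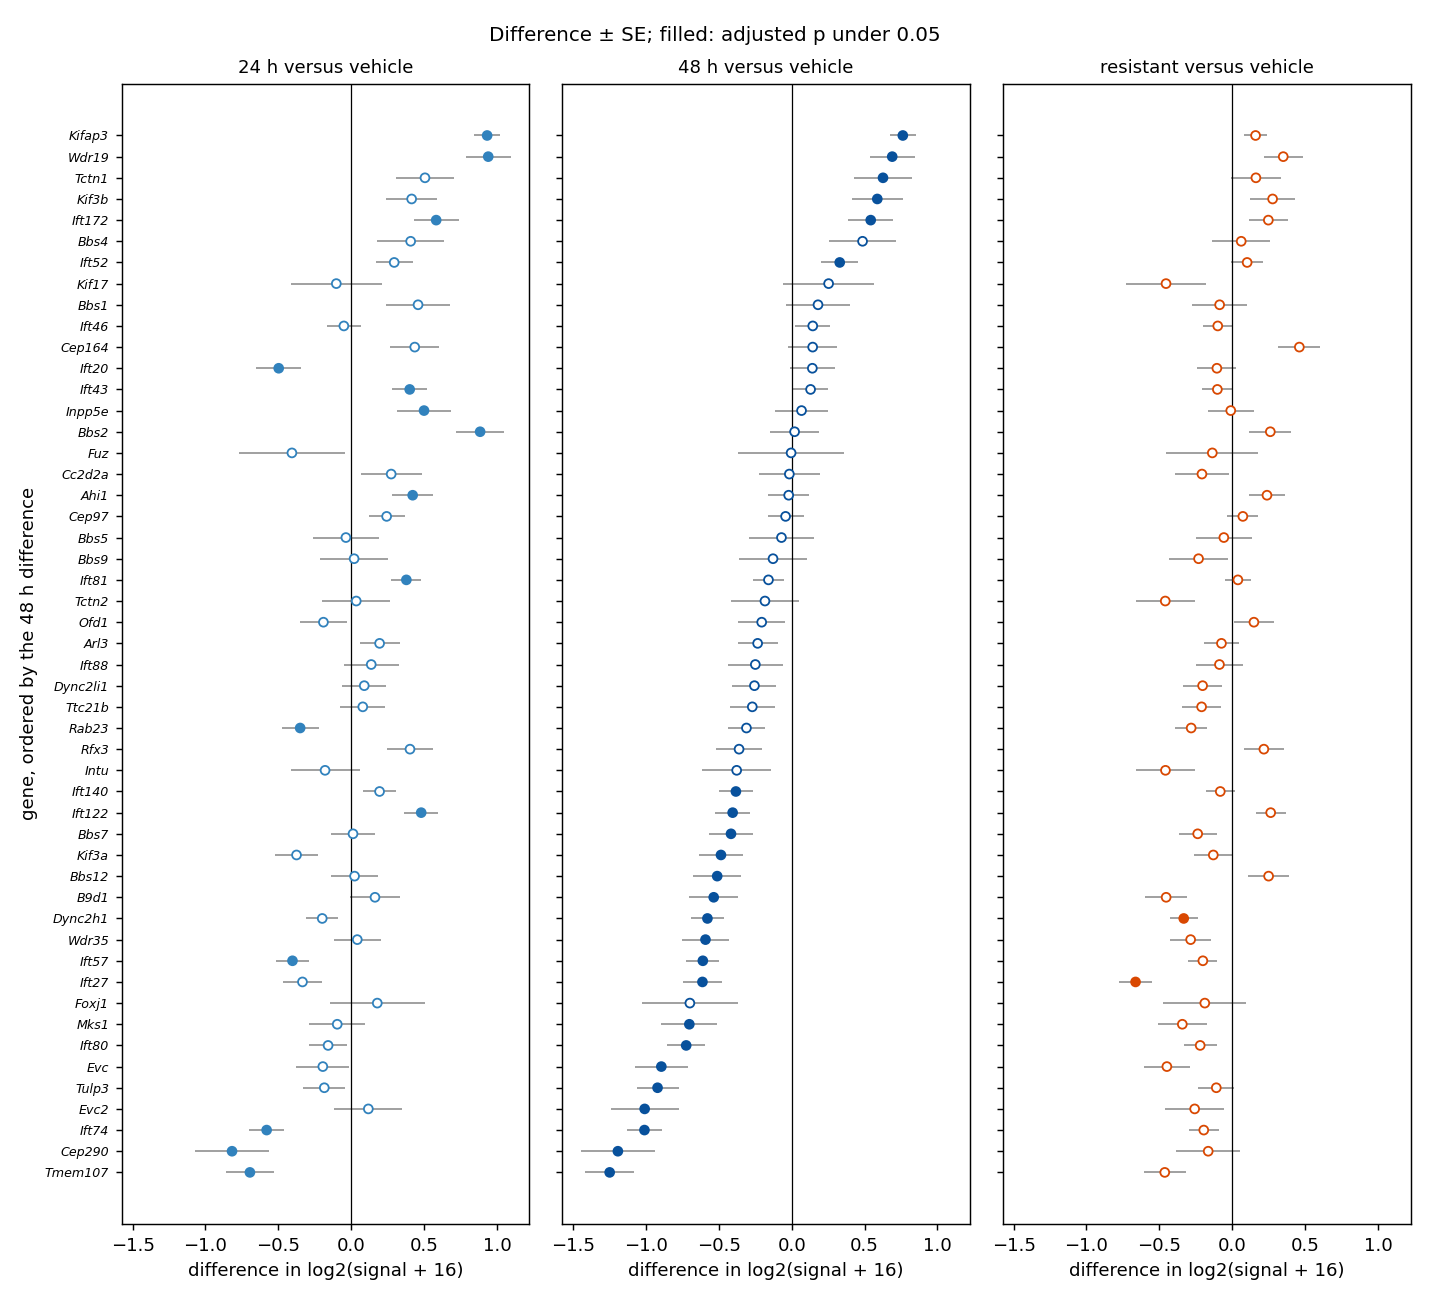
Difference in log2(signal + 16) from the vehicle arrays (horizontal axis), with SE as error bars, for the 50 tested cilium genes (vertical axis, ordered by the 48 h difference) at 24 h, at 48 h and in resistant tumours. Filled points have an adjusted p under 0.05. At 48 h there are 18 filled points left of 0 and 6 to the right, at 24 h 6 and 9, and in resistant tumours 2, both left of 0. The 3 panels share the vehicle arrays.

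From 24 to 48 h the direction was nearly uniform among called genes. Of the 50 genes 19 fell and 1 rose between these times, with a median of -0.32 against -0.03 for all genes. Over all genes 25% were called, 11.9% higher and 13.2% lower. Evc2 fell by 1.13, Ift122 by 0.89 (limma adjusted p = 9.1e-06), Bbs2 by 0.86, Rfx3 by 0.76 and Tulp3 by 0.74, with limma adjusted p from 9.1e-06 to 0.0012 among these 5. Ift20, an IFT-B subunit that is also found at the Golgi, was the gene that rose, from 167.9, 127.4 and 141.7 at 24 h to 223.8, 243.6 and 236.2 at 48 h (0.64, limma adjusted p = 0.0044). The count was 13 without replicate 1 at 24 h and also 13 without replicate 1 at 48 h, each with 1 gene higher and 12 lower. In both cases the calls lost were those of Dync2h1, Bbs7, Bbs12, Arl3, Tmem107, Mks1 and Ahi1. Between the same times all 15 macrophage markers and 10 of 15 fibroblast and matrix markers rose, and the 3′ to 5′ actin ratio given above went from 1.65 to 0.92. Their part in the cilium values was not tested.

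In resistant tumours most of the cilium genes were not called against vehicle. Of 50 genes 0 were higher and 2 were lower, where 6.65% of all genes were called (4.16% higher and 2.49% lower), and 11 members had an unadjusted p under 0.05. The member median was -0.11, against 0.01 for all genes. The genes that fell were Ift27 (-0.66 ± 0.12, limma adjusted p = 0.0014) and Dync2h1 (-0.33 ± 0.10, limma adjusted p = 0.046). The call of Dync2h1 was lost without vehicle replicate 1, 2 or 3, without resistant replicate 2 at 40 mg/kg and without resistant replicate 1 or 3 at 160 mg/kg. It was also lost with only the compared arrays in the fit, and with the 4 h vehicle or all 5 vehicle arrays as control. For Dync2h1 the 4 h vehicle arrays read 182.4 and 175.7. In the same comparison 12 of 15 macrophage markers rose and 11 of 19 proliferation genes fell, and their part in these values was not tested.

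The low Ift27 signal was in the 40 mg/kg tumours. These read 717.0, 496.6 and 563.0 against 1222.0 to 1245.8 in vehicle, and the 160 mg/kg tumours read 1184.2, 988.9 and 900.8. All resistant arrays were below these vehicle arrays and the doses did not overlap. The 4 h vehicle arrays read 961.8 and 1189.9, and the 160 mg/kg arrays overlapped them. The 40 mg/kg tumours differed from vehicle by -1.05 ± 0.13 (limma adjusted p = 3.1e-05) and the 160 mg/kg tumours by -0.27 ± 0.13 (limma adjusted p = 0.37). The difference between doses was itself called, at 0.78 ± 0.13 (limma adjusted p = 0.0014), and the other 2 Ift27 probe sets gave 0.65 (limma adjusted p = 0.0042) and 0.67 (limma adjusted p = 0.093). Ift27 was the only cilium gene called between the doses, where 2.8% of all genes were. The call between doses was lost with only the compared arrays in the fit.

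At 40 mg/kg alone 4 cilium genes were lower than vehicle and 1 was higher, where 9.85% of all genes were called (5.39% higher and 4.46% lower), and at 160 mg/kg none was, where 1.45% of all genes were and 7 members had an unadjusted p under 0.05 with limma. Besides Ift27 the lower genes were Evc (-0.62, limma adjusted p = 0.04), Tmem107 (-0.56, limma adjusted p = 0.043) and Dync2h1 (-0.44, limma adjusted p = 0.014). Cep164, which docks the mother centriole to the membrane, read 411.5, 432.1 and 316.1 at 40 mg/kg against 244.5, 204.9 and 219.1 in vehicle (0.74 ± 0.17, limma adjusted p = 0.0064). At 160 mg/kg Cep164 read 335.1, 237.0 and 203.9 and overlapped vehicle, and its difference between doses was not called (-0.57, limma adjusted p = 0.084). The count of 5 was 2 without resistant replicate 2 at 40 mg/kg or vehicle replicate 3, and 3 without vehicle replicate 1 or 2.

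Resistant tumours and sensitive tumours at 48 h are both drug-treated, and set against each other they differed in 17 of 50 cilium genes. The resistant tumours were higher in 14 and lower in 3, with a member median of 0.14 against -0.05 for all genes, where 42.8% of all genes were called (19.8% higher and 23% lower). These values share the 48 h arrays with the comparison of 48 h and vehicle, so both sets of values are given side by side and not as separate evidence. Macrophage and fibroblast markers moved here too, with 14 of 15 lower in each list in resistant tumours, and all 19 proliferation genes were higher. Of 15 granule lineage genes 10 were lower and 2 higher, and 9 of 12 endothelial markers were lower. Their part in the cilium values was not tested.

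Of the train genes Ift74 read 337.5, 385.3 and 467.1 in resistant tumours at 40 mg/kg and 387.2, 401.7 and 301.0 at 160 mg/kg, all above the 192.5 to 219.4 seen at 48 h (0.82 ± 0.10, limma adjusted p = 1e-06). Ift122 read 479.7, 373.5 and 377.1 at 40 mg/kg and 402.3, 404.1 and 387.6 at 160 mg/kg, all above the 48 h arrays (0.67 ± 0.10, limma adjusted p = 1.3e-05). Ift80, at 213.6, 168.8 and 175.4 and then 217.7, 248.2 and 207.6, was higher by 0.50 (limma adjusted p = 0.0011). Ift140, at 454.7, 366.3 and 398.5 and then 433.0, 414.2 and 351.9, was higher by 0.30 (limma adjusted p = 0.02). All resistant arrays of both genes lay above 48 h. The call of Ift140 was lost without replicate 3 or 4 at 48 h. Bbs12 was higher by 0.76 ± 0.14 (limma adjusted p = 0.00014), at 128.8, 104.9 and 109.9 under 40 mg/kg and 120.2, 102.1 and 105.4 under 160 mg/kg, all above the 48 h arrays.

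Of the genes of signal handling and the gate Tulp3 read 229.7, 240.1 and 188.8 at 40 mg/kg and 313.6, 291.4 and 211.9 at 160 mg/kg, all above the 48 h arrays (0.81 ± 0.12, limma adjusted p = 1.4e-05). Evc2 read 160.3, 132.8 and 122.6 and then 95.2, 145.8 and 108.6, also all above 48 h (0.75, limma adjusted p = 0.0049). Evc overlapped the 48 h arrays through replicate 2 at 40 mg/kg, which read 77.3 beside 123.3 and 115.8, with 112.1, 152.5 and 143.3 at 160 mg/kg (0.45, limma adjusted p = 0.03), and its call was lost without any single 48 h array and without 3 of the resistant arrays (replicates 1 and 3 at 40 mg/kg and replicate 2 at 160 mg/kg). Cep290 read 84.8, 82.4 and 151.6 at 40 mg/kg and 111.3, 120.8 and 60 at 160 mg/kg (1.03 ± 0.22, limma adjusted p = 0.00065), above every 48 h array. Tmem107 was higher by 0.79 ± 0.14 (limma adjusted p = 0.00013), at 565.6, 396.6 and 372.2 under 40 mg/kg and 424.9, 608.2 and 488.0 under 160 mg/kg, again all above 48 h. Tctn1, at 84.0, 108.5 and 75.4 and then 80.5, 82.6 and 76.8, was lower than at 48 h (131.0, 111.7 and 124.1) without overlap (-0.46, limma adjusted p = 0.041). Its call was lost with no filter, with quantile normalization and without any single array of the compared groups other than resistant replicate 2 at 40 mg/kg.

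Rfx3 was higher in resistant tumours than at 48 h by 0.58 ± 0.14 (limma adjusted p = 0.0019), reading 416.6, 603.9 and 599.5 at 40 mg/kg and 512.8, 431.1 and 403.9 at 160 mg/kg, with no overlap. With the mean of its tested probe sets Rfx3 was not called (0.45, limma adjusted p = 0.076). Foxj1, at 1.9, 2.9 and 13.3 under 40 mg/kg and 18.7, 14.2 and 25.5 under 160 mg/kg, was not called (0.51, limma adjusted p = 0.18). Kifap3 went down in this comparison, with 750.3, 651.4 and 710.3 at 40 mg/kg and 783.8, 722.3 and 716.6 at 160 mg/kg (-0.60 ± 0.08, limma adjusted p = 1.6e-06), all below the 48 h arrays. Ofd1 (0.35, limma adjusted p = 0.0498) and Kif17 (-0.71, limma adjusted p = 0.046) lay at the threshold. Ofd1 read 135.0, 108.8 and 129.2 at 40 mg/kg and 131.3, 117.0 and 88.2 at 160 mg/kg, the last within the 48 h range. Kif17 read 13.6, 16.6 and 44.9 and then 7.6, 33.4 and 12.2, and overlapped 48 h through the 44.9. Another tested Kif17 probe set went the other way, at 19.5, 4.9 and 19.7 at 48 h. In resistant tumours that probe set read 47.6, 33.9 and 17.3 at 40 mg/kg and 7.4, 45.9 and 45.9 at 160 mg/kg. The brightest Kif3a probe set was higher by 0.36 (limma adjusted p = 0.037), but another Kif3a probe set gave -0.25, and the call was lost with quantile normalization, with eBayes without trend, with only the compared arrays, and without replicate 3 or 4 at 48 h, resistant replicate 1 at 40 mg/kg or resistant replicate 1 or 2 at 160 mg/kg. The call of Ofd1 was lost without replicate 1 or 3 at 48 h, without resistant replicate 1 or 3 at 40 mg/kg and without resistant replicate 1 or 2 at 160 mg/kg. The call of Kif17 was lost without any single 48 h array, without resistant replicate 1 or 2 at 40 mg/kg and without resistant replicate 1 or 3 at 160 mg/kg. It was also lost with an offset of 64, no filter, quantile normalization, only the compared arrays or the mean of its tested probe sets.

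Other genes of the cilium that are not among the 54 give the surroundings of these values. Of 73 on the array 72 were tested, and at 48 h 23 fell and 6 rose (median -0.29). That is 40.3% called, against 46.5% of all genes. At 24 h 13 rose and 11 fell (33.3%, against 34.1% of all genes). In resistant tumours 2 rose and 0 fell against vehicle (2.78%, against 6.65% of all genes). Between resistant and 48 h tumours 25 were higher and 4 lower (40.3%, against 42.8% of all genes). The falls at 48 h were led by Kif24, a kinesin that holds cilium growth back with Ccp110 (-1.74), B9d2, a partner of B9d1 (-1.64), and Ccp110, the centriole cap (-1.26). The rises were led by Adcy3, the adenylyl cyclase of many neuronal cilia (1.64), Ttc30b, an IFT-B subunit (1.00), and Ccdc28b, a BBSome-associated protein (0.95). All 6 were called by limma, with adjusted p from 3.7e-09 to 0.00026. Kif24 read 130, 93.3 and 124.7 in vehicle and 12.6, 28.7 and 30.9 at 48 h. B9d2 read 676.1, 512.8 and 507.7 and then 131.3, 177.5 and 205.0, and Ccp110 913.2, 1051.4 and 1035.0 and then 430.3, 420.6 and 372.7. None of these 3 overlapped vehicle. Adcy3 went from 88.5, 75.3 and 106.7 to 308.5, 277.3 and 355.7, Ttc30b from 96.5, 87.9 and 92.5 to 170.0, 234.1 and 202.4, and Ccdc28b from 196.1, 168.5 and 156.9 to 402.4, 349.0 and 302.7. These 3 did not overlap either. Smo, the drug's target, and Gpr161, the receptor that Tulp3 carries, were added after their values were seen. Smo read 565.4, 665.7 and 550.6 in vehicle and 323.0, 304.6 and 291.7 at 48 h (-0.92, limma adjusted p = 9.9e-07, on a probe set that can share probes), and Gpr161 fell by 0.51 (limma adjusted p = 0.04).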

How the data were processed

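Total RNA of 23 tumour samples was hybridised to Affymetrix arrays, and no label says whether the samples are separate animals. The authors deposited linear signal intensity values, 1 per probe set, made with MAS5 per the submitters' processing notes; its version and the genome build are not given in the sources used here. After trimming 2% at each end, all arrays had a mean of 150.0, so the deposited intensity was already scaled, and no counting error can be given. The series' design text gives the array as Mouse Genome 430A 2.0, but the table holds 45101 probe sets, more than that array carries. Genes were named from the platform annotation (34945 probe sets with 1 symbol, 932 with several, 9160 with none), and 64 control probe sets were left out.

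Values were analysed as log2(signal + 16). A probe set was tested if 2 or more arrays had it above their own 40th percentile (35066 probe sets, 14946 genes). limma 3.58.1 in R 4.3.3 fitted the 8 group means in 1 model (eBayes with trend, 15 residual degrees of freedom), with two-sided p-values adjusted by Benjamini-Hochberg within each of 11 comparisons and calls at 0.05; the fit was tested on simulated data. The pooled spread lets groups of 2 or 3 arrays borrow from the others. Resistant doses were weighted equally. Each gene was read by its probe set of highest mean log2 signal. Within groups the median absolute log2 difference between arrays ran from 0.185 to 0.335, so no array repeats another. The data.table package was version 1.17.8, and tables were made in Python 3.11.15 with pandas 2.3.3.

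Full array values are given, in each role group, for up to 3 called members with the largest difference at 48 h and up to 2 in resistant against 48 h tumours, and always for Evc, Evc2, Foxj1 and Rfx3; from the other cilium genes, the 3 largest rises and falls at 48 h. Array values of other members, Smo, Gpr161, Atoh1 and Cd68 were chosen after they were seen. The members and lists were chosen with earlier results of these data known. The alternatives changed the offset (1 or 64), the filter (none, or the 60th percentile), the scaling (quantile), the eBayes trend (off), the arrays in the fit (those compared), the control (all 5 vehicle arrays, or the 4 h vehicle), the block (replicate number, or 1 of 3 runs of title identifiers) and the probe sets (a gene's mean), or left out 1 array. Same-numbered arrays of different groups did not deviate together (correlations from -0.12 to 0.12 over 70 pairs).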

Additional observations from a re-analysis of the deposited data

Results flagged for a closer look

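Between the 48 h and the 24 h arrays signals differed by limma in 20 cilium genes. Lower at 48 h, in log2 units, were Evc2 (-1.13), Ift122 (-0.89), Bbs2 (-0.86), Rfx3 (-0.76), Tulp3 (-0.74), Evc (-0.70), B9d1 (-0.70), Wdr35 (-0.63), Mks1 (-0.61), Ift140 (-0.58), Ift80 (-0.57), Tmem107 (-0.55), Ift81 (-0.54), Bbs12 (-0.53), Ahi1 (-0.44), Ift74 (-0.43), Bbs7 (-0.43), Arl3 (-0.43) and Dync2h1 (-0.38). Higher was Ift20 (0.64). Both times used the same dose, and no vehicle array is labelled with either time. All 15 macrophage and 10 of 15 fibroblast and matrix markers rose between the same arrays, the 3′ to 5′ actin ratio went from 1.65 to 0.92, and their part was not tested. The 24 h replicate 1 array, whose source label says resistant, is among them, and without it 13 genes were called.

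Between resistant tumours and sensitive tumours at 48 h, both treated, 17 cilium genes differed by limma. Resistant tumours were lower in Kif17 (-0.71), Kifap3 (-0.60) and Tctn1 (-0.46). They were higher in Ift140 (0.30), Ofd1 (0.35), Kif3a (0.36), Ift57 (0.41), Evc (0.45), Ift80 (0.50), Rfx3 (0.58), Ift122 (0.67), Evc2 (0.75), Bbs12 (0.76), Tmem107 (0.79), Tulp3 (0.81), Ift74 (0.82) and Cep290 (1.03). The resistant arrays have no stated time and 3 of the 6 are at another dose, so that time and tumour status cannot be told apart. The calls of Kif17, Tctn1 and Kif3a were each lost without any of several single arrays, as given with their values. The tested probe sets of Kif17 did not share a direction, nor did those of Kif3a.

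Between the doses of the resistant tumours Ift27 differed, at 0.78 higher under 160 mg/kg. The call was lost with only the compared arrays in the fit.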

How the results depend on the processing

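No called cilium gene reversed direction under an alternative at 48 h against vehicle, or in resistant tumours against vehicle or 48 h tumours. In the other comparisons directions were not followed gene by gene. The 24 h count of 15 and the 48 h count of 24 stayed within 1.5 times under all alternatives other than single arrays, at 11 to 21 and 20 to 26. The count between 48 h and 24 h fell from 20 to 13 with the identifier run as a block, and that at 8 h went from 0 to 2 with all 5 vehicle arrays. For resistant tumours at 40 mg/kg against vehicle the 5 calls became 3 with no filter, 2 with only the compared arrays and 8 with all 5 vehicle arrays. For all resistant tumours against vehicle the 2 calls became 1 with only the compared arrays, 5 with all 5 vehicle arrays, 1 with the replicate block and 1 with the identifier run as a block. Between the doses the 1 call, that of Ift27, became 0 with only the compared arrays, and the count became 2 with the mean of a gene's probe sets. The cause of these changes was not tested. The replicate block gave 20 calls at 48 h, 13 at 24 h and 16 between them. The numbers did not pair the arrays. Leaving out single arrays gave 9 to 14 calls at 24 h, 19 to 22 at 48 h, 13 to 19 between them, 1 to 4 in resistant tumours against vehicle, 2 to 5 at 40 mg/kg, 1 to 2 between the doses and 12 to 18 in resistant against 48 h tumours. At 48 h Ift27, Ift57, Ift74, Ift80, Kifap3, Tulp3, Evc, Evc2, Cep290 and Tmem107 were called under every alternative run, and Ift27 also in resistant tumours against vehicle. No vehicle array is labelled 24 or 48 h, and a dim gene such as Foxj1 has little signal over background.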

Other observations

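Genes of motile cilia were followed as a check on the kind of cilium. Of 20 that could be tested, out of 35 on the array, 3 rose and 1 fell at 24 h, 1 rose and 1 fell at 48 h, and in resistant tumours against vehicle limma called 0, with 2 at an unadjusted p under 0.05. The called shares were 20% at 24 h and 10% at 48 h, against 34.1% and 46.5% of all genes. In resistant tumours 6.65% of all genes were called. Their summed signal was 735 to 869 in vehicle, 1145 to 1241 at 24 h and 1084 to 1215 at 48 h.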
